A study of Mus musculus with 18 samples.

Results

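The 39 genes described here encode the machinery that copies DNA and the regulators of entry into S phase, the stage of the cell cycle in which the genome is duplicated. They were taken by name from the array annotation, each read from its brightest probe set, and are 39 of the 19937 genes that a probe set names alone. All 39 were measured and passed the filter on dim genes, which kept the 15711 genes whose highest group mean lay above 5.86 on the log2 scale. Total RNA of mouse embryonic fibroblasts of strain 129sv/ev was read on 18 Affymetrix arrays, in 6 groups of 3 whose titles carry the numbers 1, 2 and 4. The KO groups are cells labelled NFAT5 knock-out 5.1, without Torin1, in hypertonic or in isotonic medium. The WT groups are cells labelled NFAT5 wild-type 5.4, and they are hypertonic with Torin1, isotonic with Torin1, hypertonic without Torin1 and isotonic without Torin1. Torin1, an inhibitor of the kinase mTOR, was given at 100 nM for 1 h beforehand. NFAT5 is a transcription factor that turns on osmolyte genes under hypertonic stress. Hypertonic medium carries the number 500 in the titles and isotonic medium 300, without a unit, and the labels give no duration of the hypertonic treatment. Each genotype carries 1 label number, so genotype and line cannot be told apart, and isotonic KO array 1 is KO by its title but wild-type 5.4 by its genotype label. The labels name no separate cultures for the arrays of a group, so a p-value here reflects the spread among arrays, which may be technical.

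Replication is prepared when the origin recognition complex, with Cdc6 and Cdt1, loads the ring of Mcm2 to Mcm7 onto origins, a step called licensing. Cdc45 and the GINS complex then turn the ring into an active helicase, polymerase alpha with primase starts new strands, and polymerases delta and epsilon extend them on the sliding clamp Pcna. Cells that move through late G1 raise many of these transcripts together through E2F transcription factors, and embryonic fibroblasts in culture are a classical system for this step. In RNA of whole cultures, fewer cells in S phase and less RNA per cell cannot be told apart.

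Gene-level array medians were 7.53 to 7.57 on the hypertonic KO arrays and 7.64 to 7.74 on the other 15 arrays. The mean over 14 fibroblast markers was 11.43 to 11.74 on KO arrays and 10.49 to 10.59 on WT arrays. Isotonic KO array 1, whose labels conflict, is among the KO arrays of that range. Of the 14 markers 5 were higher in KO cells in hypertonic medium and 4 in isotonic medium. Means of 7 epithelial markers were 6.69 to 6.97 on KO arrays and 6.47 to 6.74 on WT arrays, with Cdh1 called higher in KO cells in both media. Means of the endothelial markers, 5 of which passed the filter, were 6.38 to 6.88 on KO arrays and 6.09 to 6.35 on WT arrays, with Tek called higher in KO cells in hypertonic (2.44) and isotonic medium (2.05). Of 5 macrophage markers tested, 1 was higher and 1 lower in KO cells in hypertonic medium, and 1 was higher in isotonic medium. In isotonic medium 1 of 5 muscle markers and the 1 pluripotency marker tested were also higher in KO cells. Between hypertonic and isotonic KO cells 1 marker of each of 5 lists was called: Cdh1 (-0.86), the fibroblast marker Pdgfrb (-0.25) and the pluripotency marker Nanog (-0.50) were lower, and the macrophage marker Itgam (1.18) and the endothelial marker Pecam1 (0.47) were higher. Of the 5 macrophage markers tested, 3 were negative in that comparison. The part of these marker differences in the results was not tested. Nfat5 read 10.13, 10.22 and 9.73 on hypertonic KO arrays 1, 2 and 4, against 10.77, 10.46 and 10.18 on hypertonic WT arrays, a difference of -0.44 ± 0.16 (limma, adjusted p = 0.0503, and 0.00591 with array number as a block, a fit that compares arrays of the same number). In isotonic medium Nfat5 read 9.83, 9.72 and 9.73 on KO arrays and 10.13, 9.99 and 9.94 on WT arrays. The labels do not say where its probes lie relative to the deletion, so this level does not check the genotype.

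Promoters of the replication genes were searched for letters that E2F factors can bind. Of the 39 genes, 32 have a window in the RefSeq table (GRCm38.p6), which holds 250 bases before and 50 bases after the gene start. The genes with no window are Mcm4, Gins1, Gins2, Gins4, Prim2, Pole and Ccne2. An E2F core of 7 letters (TTCCCGC, or the same with GG, CG or GC in place of its middle CC, both strands) was in 18 of the 32 windows, or 56.25%, and in 15.4% of the 12343 windows of all tested genes. It was in 7 of 9 windows of licensing genes, among them Cdc6, Cdt1, Mcm3, Mcm5 and Mcm7, and in no window of Tk1, Rfc5, Pcna, Ccne1 or E2f1. The NF-Y box (CCAAT, both strands) was in 19 of the 32 windows and in 37.7% of those of tested genes. The CHR element (TTTGAA, both strands), known from promoters of mitosis genes, was in 4 of the 32 windows, or 12.5%, and in 12.03% of those of tested genes. Among 24 windows of a mitosis list the E2F core was in 3, the NF-Y box in 18 and the CHR element in 17. These are matches of letters in a window and not measured binding.

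Promoters of 4 members are shown, as the 250 bases before the start read 5′ to 3′ on the gene's strand, with E2F core matches in capitals. Mcm6, a licensing gene, has the most matches of any member, and Prim1, Uhrf1 and Chaf1a are genes that changed in KO cells below.
Mcm6, chr1:128359706-128359955, minus strand: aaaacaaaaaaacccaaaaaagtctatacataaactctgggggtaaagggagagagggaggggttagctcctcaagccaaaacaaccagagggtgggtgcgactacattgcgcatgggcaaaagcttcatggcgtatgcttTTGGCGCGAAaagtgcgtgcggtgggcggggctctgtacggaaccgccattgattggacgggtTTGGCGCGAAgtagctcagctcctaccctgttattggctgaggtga
Prim1, chr10:128014965-128015214, plus strand: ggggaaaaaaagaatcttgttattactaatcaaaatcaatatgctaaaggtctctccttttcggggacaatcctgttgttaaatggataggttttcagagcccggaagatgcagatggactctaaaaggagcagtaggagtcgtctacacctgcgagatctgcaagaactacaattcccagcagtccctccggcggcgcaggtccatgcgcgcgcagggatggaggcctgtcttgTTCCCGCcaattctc
Uhrf1, chr17:56303087-56303336, plus strand: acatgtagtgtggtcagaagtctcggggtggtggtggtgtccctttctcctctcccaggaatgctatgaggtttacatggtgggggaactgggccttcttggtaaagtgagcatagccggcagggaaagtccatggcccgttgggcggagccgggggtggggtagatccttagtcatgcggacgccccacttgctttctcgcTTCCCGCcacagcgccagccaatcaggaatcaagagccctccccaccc
Chaf1a, chr17:56040166-56040415, plus strand: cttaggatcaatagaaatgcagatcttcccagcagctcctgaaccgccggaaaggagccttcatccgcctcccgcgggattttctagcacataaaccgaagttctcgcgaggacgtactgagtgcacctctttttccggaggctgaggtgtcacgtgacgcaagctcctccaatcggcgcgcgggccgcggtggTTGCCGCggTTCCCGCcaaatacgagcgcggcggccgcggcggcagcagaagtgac
In Mcm6 each run of capitals holds a pair of overlapping matches, TTGGCGC and, on the other strand, TTCGCGC. In Prim1 the last letter of the match is also the first letter of a CCAAT box, so these motifs overlap. Chaf1a holds TTGCCGC and TTCCCGC close together, and Uhrf1 holds TTCCCGC once.

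**Figure D1:**
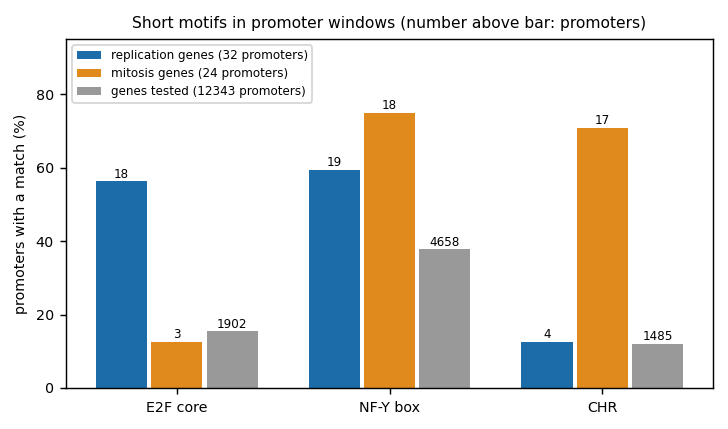
Bars give the percentage of promoter windows with at least 1 match for the replication genes (32 windows), the mitosis genes (24 windows) and all tested genes (12343 windows), with the number of matching windows above each bar. The E2F core stands at 56.25% in replication genes against 15.4% in tested genes, while the CHR element stands at 12.5% against 12.03%.

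Across the arrays the replication genes moved largely together within groups. After group means were removed, all 741 pairs of members correlated above 0, with a median r of 0.70 over the 18 arrays, and members against other tested genes had a median of 0.05. Of 378 pairs of mitosis genes all were above 0, with a median of 0.80, and 34 other replication factors had a median of 0.35. These arrays share numbers and processing, so the correlations are a description. Mcm2 (r = 0.96 with the mean of the other members), a subunit of the licensed ring, lay nearest to the common pattern together with Pola2, and Rfc4 (0.47), a subunit of the clamp loader, lay farthest from it. The median SD within groups was 0.263 for members and 0.165 for all tested genes.

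In every group but isotonic WT cells, array 4 was the lowest array for most members. Array 4 was the lowest of its group for 38 of 39 members in isotonic WT cells with Torin1, 36 in hypertonic WT cells with Torin1 and 34 in hypertonic WT cells. It was the lowest for 22 members in hypertonic KO cells and 27 in isotonic KO cells. In isotonic WT cells array 1 was the lowest for 31 members and array 4 for 7, and array 4 was the highest for 19. Over all tested genes array 4 was the lowest of its group for 37.1% to 52.7%. Isotonic KO array 2 was the highest of its group for all 39 members. Mcm2 shows the pattern, with 9.76, 10.01 and 9.61 on hypertonic KO arrays 1, 2 and 4 and 9.92, 10.28 and 9.67 on isotonic KO arrays. In WT cells Mcm2 read 10.11, 10.12 and 9.38 in hypertonic medium with Torin1, 9.73, 9.78 and 8.79 in isotonic medium with Torin1, 10.25, 10.20 and 9.41 in hypertonic medium and 9.64, 10.24 and 10.08 in isotonic medium. Its lowest array stands apart from the other 2 in most groups, and the groups overlap. Mcm5, the neighbouring ring subunit, read 10.42, 10.69 and 9.94 on hypertonic KO arrays and 10.41, 11.02 and 10.32 on isotonic KO arrays, again overlapping.

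**Figure D2:**
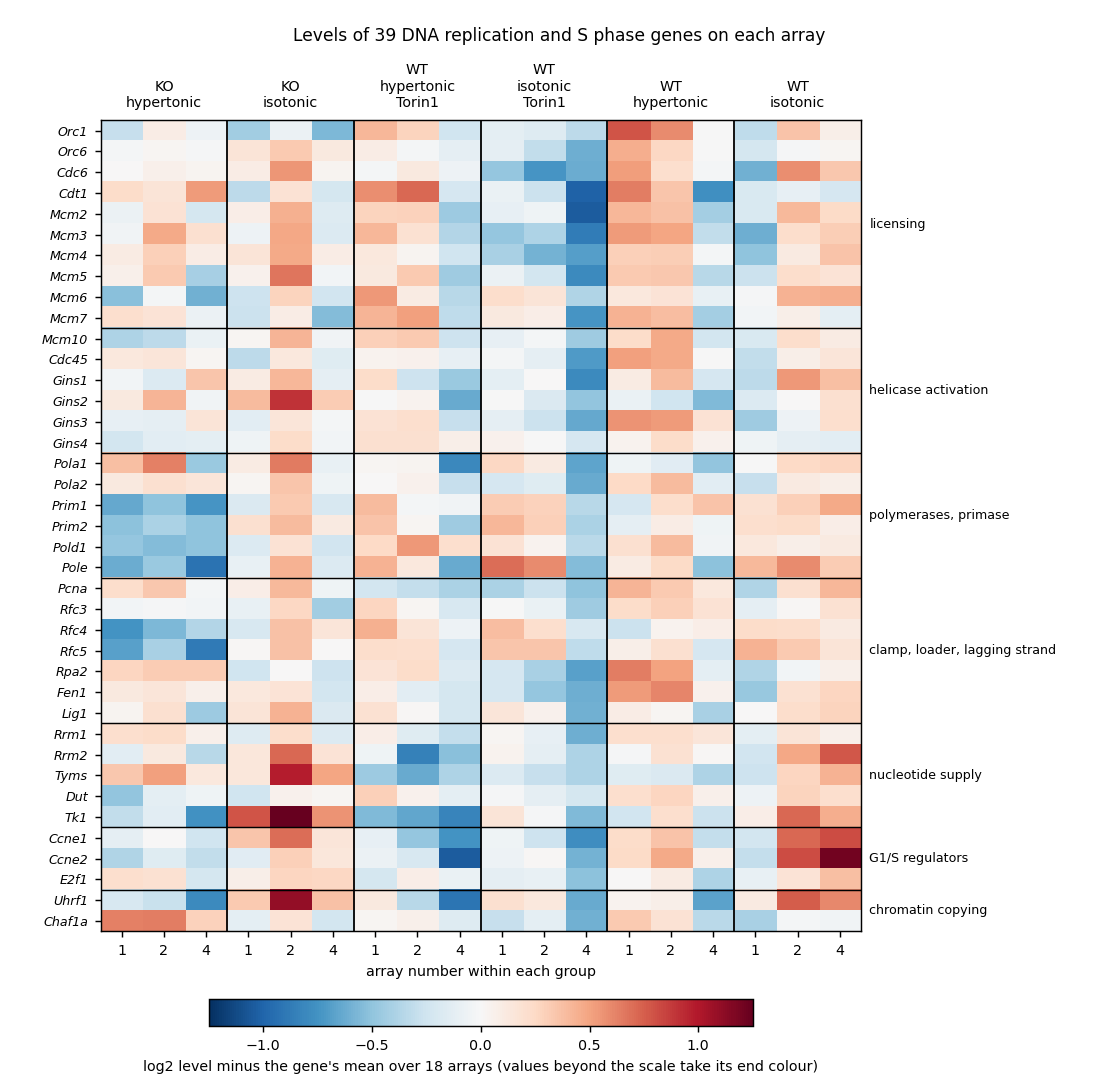
Each cell gives a gene's log2 level on an array minus its mean over the 18 arrays, with genes in rows by role and arrays in columns by group. Array 4 of isotonic WT cells with Torin1 is below the other 2 for 38 of 39 genes, and isotonic KO array 2 is the highest of its group for all 39.

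The median member lay 0.60 below its mean over all arrays on isotonic Torin1 array 4 of WT cells. The highest median, 0.36, was that of isotonic KO array 2, while the medians of all tested genes stayed between -0.05 and 0.07. Mitosis genes did not follow on every array: on isotonic WT array 1 their median was 0.24 and that of replication genes was -0.19.

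**Figure D3:**
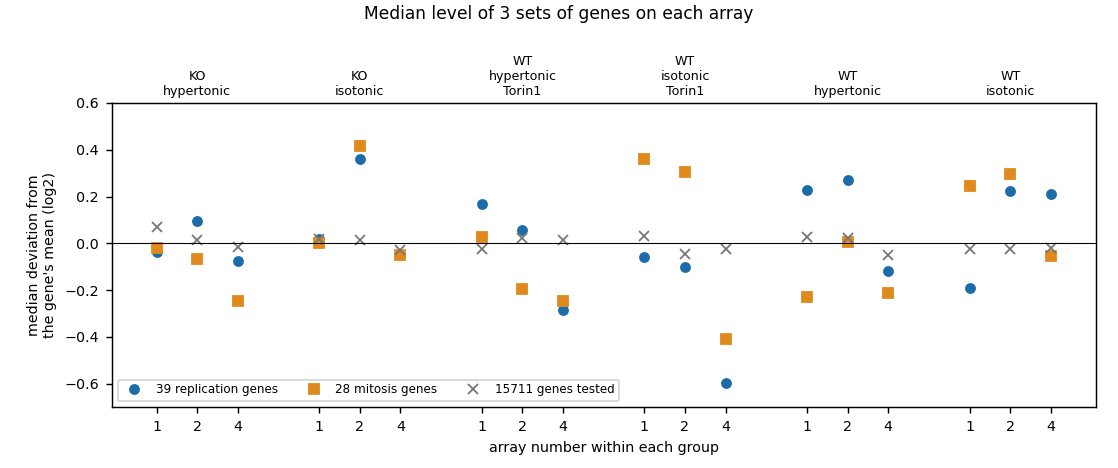
Points give, for each array, the median log2 deviation from each gene's mean over 18 arrays, for 39 replication genes, 28 mitosis genes and 15711 tested genes. Replication genes range between -0.60 and 0.36 while all tested genes stay between -0.05 and 0.07.

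In KO cells hypertonic medium lowered Tk1, Uhrf1, both primase subunits, Pold1, Rfc4 and Rfc5 and raised Chaf1a. Of 39 members 7 fell and 1 rose, or 20.5%, where 30.1% of all tested genes were called (17.2% lower and 12.9% higher), so the share of members called is below that of all genes. The median change was -0.19 for members and 0.02 for all tested genes, 27 members were negative and 12 positive, and the arrays did not overlap for 16 members, against 45.6% of all genes. The members' median was -0.03 without isotonic KO array 2, -0.11 without hypertonic KO array 4 and -0.12 after a repeated quantile normalization. None of 10 licensing genes and none of 6 helicase activation genes passed, while 3 of 6 polymerase and primase genes and 2 of 7 clamp, loader and lagging strand genes fell.

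**Figure D4:**
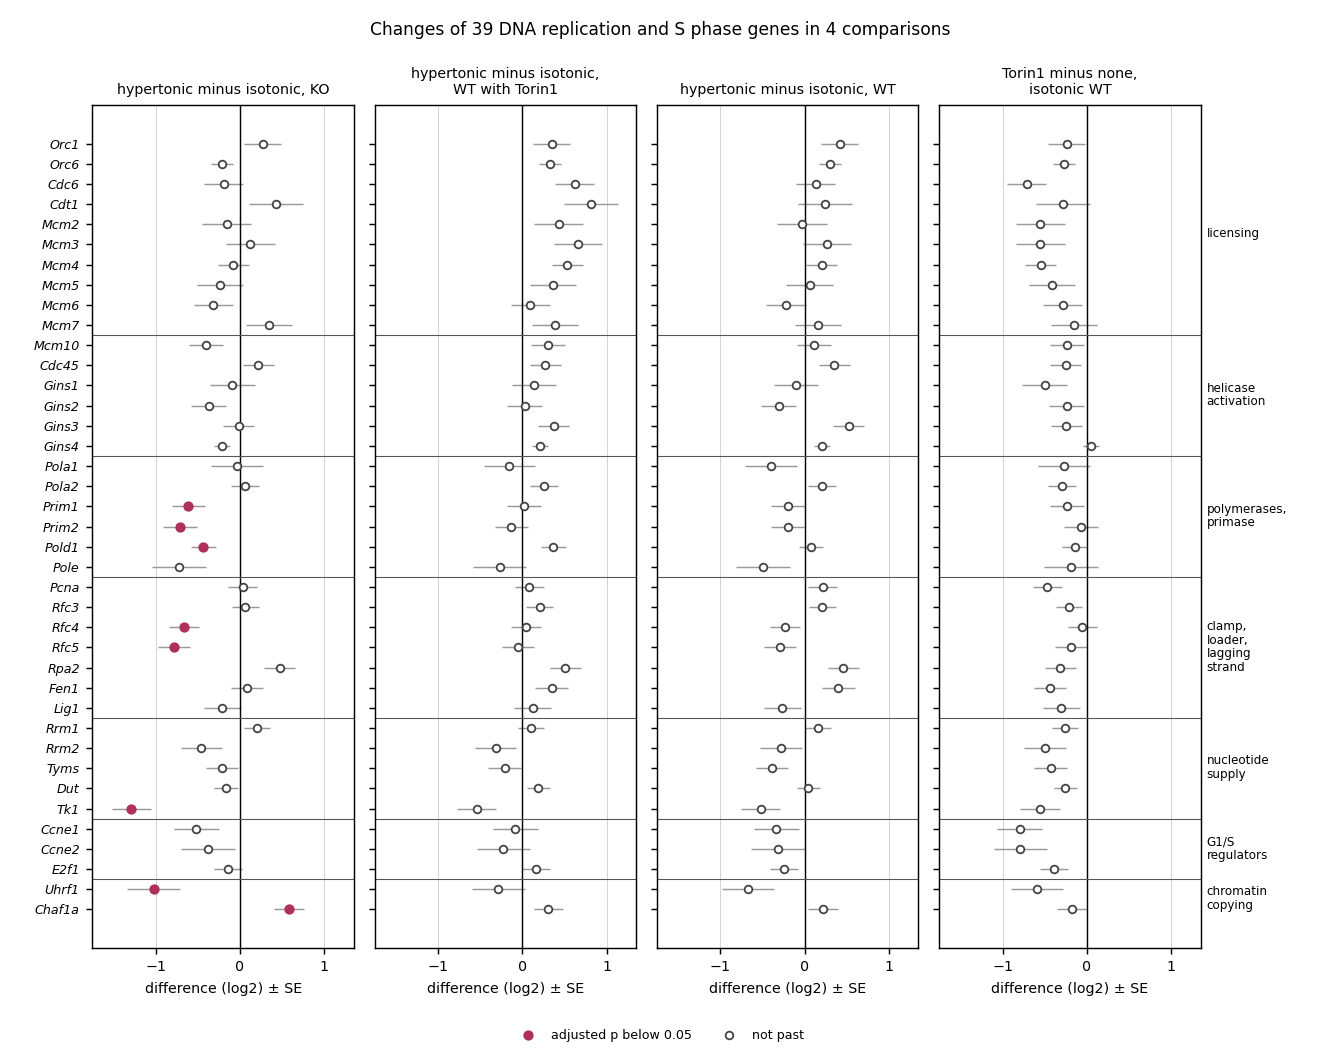
Points give the log2 difference with its standard error for each member in 4 comparisons, filled where the adjusted p is below 0.05. Filled points appear for KO cells alone, 7 of them below 0 and Chaf1a above it.

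Tk1, the thymidine kinase that makes thymidine monophosphate from salvaged thymidine, changed most. It read 8.72, 8.90 and 8.27 on hypertonic KO arrays 1, 2 and 4, against 9.82, 10.34 and 9.59 on isotonic KO arrays. All hypertonic arrays lie below all isotonic ones, and Tk1 fell by 1.29 ± 0.23 (adjusted p = 0.000635). Its other probe set gave -1.34. Among the other genes of nucleotide supply, Rrm2, the regulated subunit of ribonucleotide reductase, read 10.83, 11.09 and 10.62 on hypertonic KO arrays and 11.10, 11.68 and 11.13 on isotonic KO arrays. The arrays of Rrm2 just miss each other, and its difference of -0.46 ± 0.25 did not pass (adjusted p = 0.187). Rrm1, Tyms and Dut differed by 0.20, -0.21 and -0.17 and did not pass.

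Primase makes the short RNA primers of every new strand, and both of its subunits fell. Prim2 read 9.09, 9.21 and 9.10 on hypertonic KO arrays and 9.80, 10.01 and 9.72 on isotonic KO arrays, a fall of 0.71 ± 0.20 (adjusted p = 0.0119). Prim1, the catalytic subunit, read 8.49, 8.62 and 8.39 on hypertonic KO arrays and 8.95, 9.45 and 8.93 on isotonic KO arrays, and fell by 0.61 ± 0.20 (adjusted p = 0.0294). Neither gene's groups overlap. Pold1, the catalytic subunit of polymerase delta, averaged 8.04 ± 0.03 on hypertonic and 8.47 ± 0.22 on isotonic KO arrays (SD, n = 3 each; limma adjusted p = 0.0345). Pole, the catalytic subunit of polymerase epsilon, differed by -0.72 ± 0.32 (adjusted p = 0.103, and 0.00797 with array number as a block). Pola1 and Pola2, of polymerase alpha, differed by -0.04 and 0.06.

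The clamp loader opens Pcna and closes it around DNA, and 2 of its 3 measured subunits among the members fell. Rfc5 read 10.27, 10.54 and 10.06 on hypertonic KO arrays and 10.96, 11.31 and 10.95 on isotonic KO arrays, a fall of 0.78 ± 0.19 (adjusted p = 0.0051). Rfc4 read 9.86, 10.03 and 10.23 on hypertonic KO arrays and 10.39, 10.97 and 10.75 on isotonic KO arrays, a fall of 0.66 ± 0.18 (adjusted p = 0.00931). In both genes every hypertonic array lies below every isotonic one, and Rfc3 differed by 0.06. Pcna itself read 11.78, 11.89 and 11.53 on hypertonic KO arrays and 11.65, 11.96 and 11.50 on isotonic KO arrays, which overlap. Rpa2, a subunit of the protein that coats single strands, differed by 0.47 ± 0.18 (adjusted p = 0.0646, and 0.036 with array number as a block), while Fen1 and Lig1, which process and seal lagging strand fragments, differed by 0.09 and -0.21.

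The members that act on chromatin behind the fork moved in opposite directions. Uhrf1, which brings the maintenance DNA methyltransferase to newly copied DNA, read 8.75, 8.66 and 8.15 on hypertonic KO arrays and 9.27, 10.05 and 9.31 on isotonic KO arrays, and fell by 1.02 ± 0.31 (adjusted p = 0.0198). Chaf1a, the large subunit of the chromatin assembly factor that places histones on new DNA, read 9.07, 9.08 and 8.73 on hypertonic KO arrays and 8.32, 8.61 and 8.21 on isotonic KO arrays, and rose by 0.58 ± 0.18 (adjusted p = 0.0209). Neither gene's groups overlap. Of the G1/S regulators, Ccne1, the cyclin that starts S phase with Cdk2, read 9.20, 9.31 and 9.07 on hypertonic KO arrays and 9.66, 10.01 and 9.46 on isotonic KO arrays (-0.52 ± 0.27, adjusted p = 0.173). Its groups do not overlap, and Ccne2 (-0.38) and the transcription factor E2f1 (-0.14) did not pass either.

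**Figure D5:**
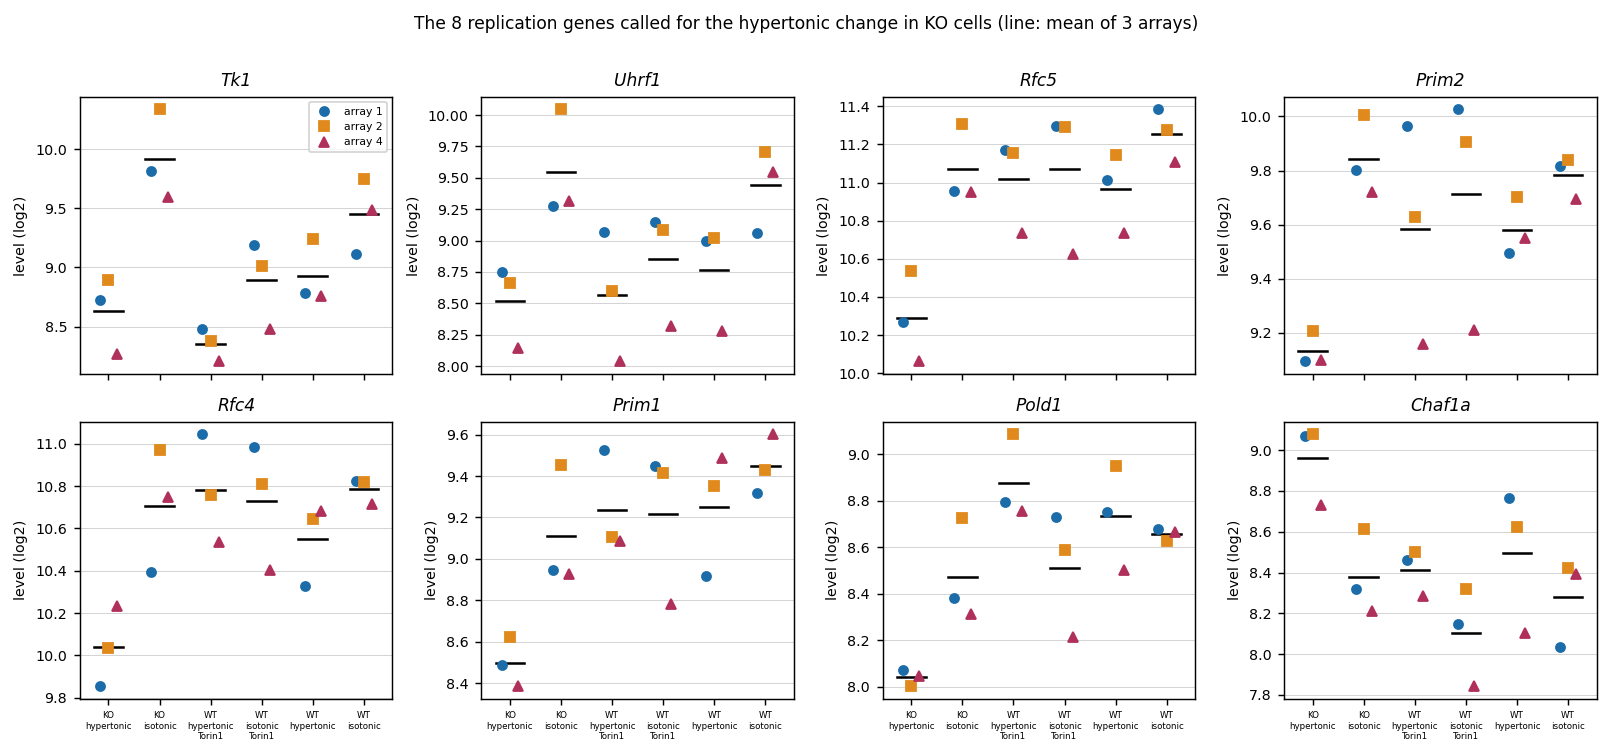
Points give the log2 level on each array, with the array number as the marker and the mean of 3 arrays as a line, for the 8 members that passed in KO cells. Hypertonic KO arrays lie below isotonic KO arrays for 7 genes and above them for Chaf1a.

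The licensing genes differed by -0.31 (Mcm6) to 0.43 (Cdt1), and Cdc6, the loader that joins the origin complex, read 7.11, 7.16 and 7.14 on hypertonic KO arrays and 7.19, 7.66 and 7.14 on isotonic KO arrays. The helicase activation genes differed by -0.40 (Mcm10) to 0.22 (Cdc45). Tk1 and Rfc5 passed with any 1 of the 18 arrays left out. Without isotonic KO array 2, 3 members passed, and the adjusted p was 0.0521 for Prim2, 0.0527 for Rfc4, 0.102 for Uhrf1, 0.143 for Prim1 and 0.163 for Pold1. Without hypertonic KO array 1 or array 4, 5 members passed, with Prim1 at 0.0712 and 0.0863, Pold1 at 0.0679 and 0.0675, Chaf1a at 0.0752 without array 1, and Uhrf1 at 0.0839 without array 4. Pold1 also missed without hypertonic KO array 2 (0.0931), and Chaf1a missed without that array (0.0787) and without isotonic KO arrays 1 (0.0664) or 4 (0.0818). Without isotonic KO array 1, whose labels conflict, the same 7 members fell. With that array counted as WT, 5 members fell, with Chaf1a at 0.0645, Pold1 at 0.0603 and Prim1 at 0.0556. Centring each array on its median moved the median change of all genes from 0.02 to 0.17. It gave 2 higher and 5 lower members with a median of -0.04, while 68.9% of all called genes were then higher, against 42.9% before. Pold1 and Prim1 lost the call under centring (-0.28 and -0.46, adjusted p = 0.125 and 0.0771) and after a repeated quantile normalization (-0.25 and -0.45, 0.224 and 0.0916).

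Whether this response differed between genotypes was tested as the hypertonic change in KO cells minus that in WT cells. No member passed, where 9.5% of all tested genes did (6.15% lower and 3.35% higher), and 4 of 39 members and 3498 of all genes had an unadjusted p under 0.05. The median of this difference was -0.18 for members and -0.01 for all tested genes, with 29 members negative. It was -0.77 ± 0.33 for Tk1 (adjusted p = 0.178, and 0.0406 with array number as a block) and -0.42 ± 0.14 for Gins4, a GINS subunit (0.07, and 0.0384 with the block). Orc6, a subunit of the origin recognition complex, differed by -0.52 ± 0.18 (adjusted p = 0.0988, and 0.041 without hypertonic WT array 4). Of the 7 genes that fell in KO cells, Tk1 passed this test with the block and Pold1 without the 6 arrays of number 4 (-0.72, adjusted p = 0.0207), while the other 5 passed it under none of the alternatives run. With 1 array left out the members' median lay between -0.31 (isotonic WT array 4) and 0.02 (isotonic WT array 1). It was -0.11 after a repeated quantile normalization and -0.00 after centring, which moved the median of all genes from -0.01 to 0.17.

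Hypertonic KO cells were then set against hypertonic WT cells, a comparison that shares the hypertonic KO arrays with the one above. Of 39 members 6 were lower and 1 higher, or 17.9%, where 31.9% of all tested genes were called (18% lower and 13.8% higher). The median difference was -0.22 for members and 0.04 for all tested genes, 32 members were negative, and the arrays did not overlap for 12, against 44.8% of all genes. The members' median was -0.13, -0.12 and -0.34 with hypertonic WT array 1, 2 or 4 left out and -0.13 after a repeated quantile normalization. With array number as a block 12 members and 39.1% of all tested genes passed, 9 of the members lower and 3 higher, adding Orc1 (-0.54, 0.0281), Prim2 (-0.45, 0.0343), Pole (-0.61, 0.02), Gins2 (0.46, 0.0388) and Chaf1a (0.46, 0.0138).

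The catalytic subunits Prim1 and Pold1 differed most among the members that passed. Prim1 read 8.49, 8.62 and 8.39 on hypertonic KO arrays against 8.92, 9.35 and 9.49 on hypertonic WT arrays (-0.75 ± 0.20, adjusted p = 0.00892). Pold1 read 8.07, 8.002 and 8.05 on hypertonic KO arrays against 8.75, 8.95 and 8.50 on hypertonic WT arrays (-0.69 ± 0.15, adjusted p = 0.00188). The groups of neither gene overlap, and both passed with any 1 of the 18 arrays left out. Rfc5 read 10.27, 10.54 and 10.06 on hypertonic KO arrays against 11.01, 11.15 and 10.74 on hypertonic WT arrays (-0.68 ± 0.19, adjusted p = 0.0124). Rfc4 read 9.86, 10.03 and 10.23 on hypertonic KO arrays against 10.33, 10.64 and 10.68 on hypertonic WT arrays (-0.51 ± 0.18, adjusted p = 0.0371).

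Of the nucleotide supply genes Tyms was higher and Dut lower, while Tk1 differed by -0.30 (adjusted p = 0.353). Tyms, which makes thymidylate from deoxyuridylate, read 9.79, 9.96 and 9.58 on hypertonic KO arrays against 9.30, 9.27 and 9.07 on hypertonic WT arrays and was higher by 0.57 ± 0.19 (adjusted p = 0.0357). Dut, which removes dUTP and yields deoxyuridylate, read 8.92, 9.29 and 9.36 on hypertonic KO arrays against 9.63, 9.69 and 9.49 on hypertonic WT arrays (-0.41 ± 0.14, adjusted p = 0.0343). Neither gene's groups overlap. Gins4 averaged 10.97 ± 0.06 on hypertonic KO arrays and 11.24 ± 0.10 on hypertonic WT arrays (SD, n = 3 each; limma adjusted p = 0.0438). Mcm2, Mcm5, Cdc6, Ccne1, E2f1, Pcna and Rrm2 differed by -0.22 (Ccne1) to 0.15 (E2f1) and did not pass.

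Several of these calls rest on single arrays. Without hypertonic WT array 2, 2 members passed, with adjusted p of 0.0581 for Rfc5, 0.111 for Rfc4, 0.111 for Dut and 0.0672 for Tyms, and without hypertonic KO array 1, 3 members passed, with Rfc4 at 0.143, Dut at 0.176 and Tyms at 0.0855. Without hypertonic KO array 2, 4 passed, with Rfc4 at 0.0866 and Tyms at 0.131. Rfc5 also missed without hypertonic KO array 4 (0.0528), Rfc4 and Tyms without hypertonic WT array 4 (0.114 and 0.111), and Dut and Tyms without hypertonic WT array 1 (0.0788 and 0.0528), while Gins4 passed in 7 of the 18 fits that leave out 1 array. Centring each array on its median moved the median difference of all genes from 0.04 to 0.18. It gave 3 higher and 3 lower members with a median of -0.07, while 69.8% of all called genes were then higher, against 43.4% before. Gins4 (-0.12, adjusted p = 0.315), Dut (-0.26, 0.155) and Rfc4 (-0.36, 0.114) lost the call under centring, Dut also after a repeated quantile normalization (0.0948), with isotonic KO array 1 counted as WT (0.0538) and in a fit on both hypertonic groups alone (0.0731), where Gins4 missed too (0.0933).

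KO cells were also set against WT cells in isotonic medium. The arrays did not overlap for 3 members, Orc6, Gins2 and Gins4, against 31.3% of all genes. No member passed, where 14.6% of all tested genes did (7.78% higher and 6.84% lower). The median difference was 0.03 for members and 0.02 for all tested genes, 20 members were positive and 19 negative, and 1 had an unadjusted p under 0.05. With 1 array left out the members' median lay between -0.15 (isotonic WT array 1, likewise isotonic KO array 2) and 0.11 (isotonic KO array 4). The gene with that p, Gins2, read 9.48, 9.99 and 9.40 on isotonic KO arrays against 8.92, 9.09 and 9.28 on isotonic WT arrays, and its difference of 0.53 ± 0.21 had an adjusted p of 0.112, and 0.0349 with array number as a block. Rrm2, Mcm2 and Ccne1 differed by -0.00, -0.03 and -0.04, and Ccne2, the other E-type cyclin, by -0.48 (adjusted p = 0.39, and 0.0336 without isotonic WT array 1). Tk1 differed by 0.47 ± 0.23 (adjusted p = 0.225, and 0.0593 with array number as a block). Tyms differed by 0.39 ± 0.19 (adjusted p = 0.222).

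In WT cells hypertonic medium gave no called member, where 8.24% of all tested genes were called (4.3% lower and 3.94% higher). The median change was 0.06 for members and 0.02 for all tested genes, 6 of 39 members had an unadjusted p under 0.05, and the arrays did not overlap for 5, against 25.3% of all genes. The sign of the members' median depended on single arrays. Leaving out hypertonic WT array 1, 2 or 4 gave -0.03, -0.05 and 0.19, and leaving out isotonic WT array 1 or 2 gave -0.10 and 0.11. Licensing genes had a median of 0.18, with 8 of 10 positive, and nucleotide supply genes a median of -0.28. Tk1 read 8.79, 9.24 and 8.76 on hypertonic WT arrays against 9.11, 9.75 and 9.48 on isotonic WT arrays, a difference of -0.52 ± 0.23 (adjusted p = 0.198, and 0.0479 with array number as a block). The other probe set of Tk1 gave -0.65. Uhrf1 differed by -0.67 ± 0.31 (adjusted p = 0.212) and Gins3, another GINS subunit, by 0.52 ± 0.18 (0.0957). Rpa2 read 9.54, 9.40 and 8.78 on hypertonic WT arrays against 8.52, 8.86 and 8.96 on isotonic WT arrays. Its array 4 goes against the other 2, and its difference of 0.46 ± 0.18 had an adjusted p of 0.14, and 0.014 without hypertonic WT array 4. With all 6 arrays of number 4 left out, a choice made after seeing the data, 9 members passed with 21.2% of all tested genes, and all 9 were higher: Orc1, Orc6, Cdt1, Mcm7, Cdc45, Gins3, Rpa2, Fen1 and Chaf1a.

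With Torin1, hypertonic WT cells likewise gave no called member against isotonic WT cells with Torin1, where 3.37% of all tested genes were called (1.72% lower and 1.65% higher). The median change was 0.19 for members and 0.02 for all tested genes, 9 members had an unadjusted p under 0.05, and the arrays did not overlap for 7, against 20.2% of all genes. The members' median was 0.06 without isotonic Torin1 array 4, 0.09 without hypertonic Torin1 array 1 and 0.29 without hypertonic Torin1 array 4. All 10 licensing genes and all 6 helicase activation genes were positive, with medians of 0.41 and 0.24. Cdt1, which loads the ring together with Cdc6, differed by 0.82 ± 0.32 (adjusted p = 0.2). Cdc6 read 7.07, 7.22 and 7.03 on hypertonic Torin1 arrays against 6.61, 6.36 and 6.48 on isotonic Torin1 arrays, which do not overlap, and differed by 0.62 ± 0.23 (adjusted p = 0.172, and 0.0329 without isotonic WT array 1). Mcm4 read 10.19, 10.08 and 9.81 on hypertonic Torin1 arrays against 9.65, 9.46 and 9.37 on isotonic Torin1 arrays (0.53 ± 0.18, adjusted p = 0.133, and 0.0463 without isotonic WT array 1). That array enters this comparison through the shared estimate of spread alone.

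The hypertonic change with Torin1 minus that without it had a median of 0.22 for members and 0.00 for all tested genes, with 31 of 39 members positive. With 1 array left out the members' median lay between -0.01 (isotonic Torin1 array 4) and 0.38 (hypertonic Torin1 array 4). No member and 0% of all tested genes passed limma's test of this difference, and 0 members and 317 genes had an unadjusted p under 0.05. It was 0.57 ± 0.46 for Cdt1, 0.49 ± 0.33 for Cdc6 and -0.02 ± 0.33 for Tk1.

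Torin1 in isotonic WT cells went with lower values of nearly all members, none of which passed. The difference was negative for 38 of 39 members and for 7346 of 15711 tested genes, with medians of -0.28 and 0.01. limma called no member and 0% of all tested genes, and 9 members and 470 genes had an unadjusted p under 0.05. The arrays overlapped for all 39 members, against 6.01% of genes whose arrays did not. Gins4 was the positive member, at 0.04 ± 0.10.

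The G1/S regulators had the lowest median of any role, -0.79. Ccne1 read 9.26, 9.06 and 8.54 on isotonic Torin1 arrays against 9.08, 10.03 and 10.13 on isotonic WT arrays, a difference of -0.80 ± 0.27. E2f1 read 9.66, 9.68 and 9.26 on isotonic Torin1 arrays against 9.68, 9.95 and 10.14 on isotonic WT arrays, a difference of -0.39 ± 0.17. In both genes isotonic WT array 1 lies at or below the highest Torin1 arrays while WT arrays 2 and 4 lie above all of them. Cdc6 read 6.61, 6.36 and 6.48 on isotonic Torin1 arrays against 6.50, 7.68 and 7.43 on isotonic WT arrays, a difference of -0.72 ± 0.23 (adjusted p = 0.9999). Without isotonic WT array 1 the difference in Cdc6 was -1.07 (adjusted p = 0.0259), and the median over members was -0.41. That median was -0.14 without isotonic Torin1 array 4 and -0.09 without the 6 arrays of number 4. Pcna read 11.17, 11.29 and 11.06 on isotonic Torin1 arrays against 11.19, 11.76 and 11.97 on isotonic WT arrays, with -0.47 ± 0.17, and -0.68 in its other probe set. Rrm2 read 11.003, 10.85 and 10.57 on isotonic Torin1 arrays against 10.73, 11.44 and 11.74 on isotonic WT arrays, with -0.50 ± 0.25. In Pcna and Rrm2 too, WT array 1 lies among the Torin1 arrays, and WT arrays 2 and 4 lie above all of them. Mcm5 read 10.29, 10.13 and 9.56 on isotonic Torin1 arrays against 10.09, 10.58 and 10.53 on isotonic WT arrays, with -0.41 ± 0.27.

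Torin1 in hypertonic WT cells gave no called member, where 0.115% of all tested genes were called (0.0573% in each direction). The median was -0.16 for members and 0.01 for all tested genes, 5 members had an unadjusted p under 0.05, and the arrays did not overlap for 6, against 15.6% of all genes. With 1 array left out the members' median lay between -0.33 (hypertonic WT array 4) and -0.01 (hypertonic Torin1 array 4). Pcna read 11.34, 11.26 and 11.16 on hypertonic Torin1 arrays against 11.98, 11.89 and 11.70 on hypertonic WT arrays, which do not overlap. Its difference was -0.60 ± 0.17 (adjusted p = 0.148, and 0.0465 without isotonic WT array 1, which enters through the estimate of spread). Rrm2 read 10.91, 10.12 and 10.44 on hypertonic Torin1 arrays against 10.94, 11.15 and 10.97 on hypertonic WT arrays (-0.53 ± 0.25, adjusted p = 0.4). All 5 nucleotide supply genes were negative, between -0.57 (Tk1) and -0.11 (Dut). Ccne1 read 9.21, 8.83 and 8.56 on hypertonic Torin1 arrays against 9.55, 9.67 and 9.02 on hypertonic WT arrays (-0.55 ± 0.27, adjusted p = 0.44), while E2f1 differed by 0.02.

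Further genes of the pathway give the setting in KO cells. Of 34 other replication factors 10 were lower and 3 higher in hypertonic than in isotonic KO cells, with a median of -0.28, where 17.2% of all tested genes were lower and 12.9% higher. Orc5 and Orc3, subunits of the origin recognition complex, differed by -1.70 ± 0.16 and -1.26 ± 0.11 (adjusted p = 3.018e-06 and 1.65e-06) and passed with any 1 array left out. Of 9 other nucleotide supply genes 4 were lower and 1 higher, with Tk2, the mitochondrial thymidine kinase, at -1.30 ± 0.12 (adjusted p = 2.853e-06) and Dtymk, which makes thymidine diphosphate, at -0.77 ± 0.13 (0.00029). Of 10 fork checkpoint genes 3 were lower, of 10 other chromatin genes none passed, and of 24 other G1/S regulators 5 were higher and 1 lower. The lower one, Rbl1, a pocket protein that holds E2F factors in check, fell by 0.91 ± 0.21 (adjusted p = 0.0038), and its relative Rb1 rose by 0.70 ± 0.14 (0.0014). Of 28 mitosis genes 3 were lower, with a median of -0.21.

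Between hypertonic KO and hypertonic WT cells 11 of the 34 other replication factors were lower and 2 higher, where 18% of all tested genes were lower and 13.8% higher, and no mitosis gene passed. In isotonic medium 2 of the 34, Pold3 and Mcmbp, were lower in KO cells, where 6.84% of all tested genes were lower. Cdk6, a kinase that starts the exit from G1, was lower in KO cells in hypertonic medium (-1.15 ± 0.28, adjusted p = 0.00485) and in isotonic medium (-1.45 ± 0.28, 0.00176). Of 24 other G1/S regulators 1 was lower in isotonic medium, Cdk6, and 1 was higher, the cyclin gene Ccnd1 (adjusted p = 0.0138). Ccnd1 did not pass without isotonic WT array 1 (0.0767) or isotonic KO arrays 1 (0.0577) or 2 (0.0668). In hypertonic medium 2 of the 24 were lower and 1 higher. With isotonic KO array 1 counted as WT, as its genotype label has it, the isotonic difference in Cdk6 was -0.82 (adjusted p = 0.442). For Ccnd1 it was then 0.95 (0.446). In that fit 0% of all tested genes passed the isotonic comparison, against 14.6% with the array counted as KO. The fibroblast marker means of the isotonic KO arrays, array 1 among them, were 11.57 to 11.74, against 10.49 to 10.59 on WT arrays. In WT cells hypertonic medium lowered 1 of the 34 other replication factors and raised 3, where 4.3% of all tested genes were lower and 3.94% higher. The lower one was Pold4, a small subunit of polymerase delta, at -0.81 ± 0.12 (adjusted p = 0.00156). Pold4 was also called lower in hypertonic medium in KO cells (adjusted p = 0.000752) and in WT cells with Torin1 (0.0284). The higher ones, Orc2, Pole3 and Rnaseh2c, passed in 6, 13 and 14 of the 18 fits that leave out 1 array. Of 7 listed inhibitors of cyclin-dependent kinases, Cdkn1a was not measured, as no probe set names it alone. Of the measured inhibitors, 6 in number, none passed for hypertonic medium or Torin1. Cdkn2c was lower in hypertonic KO than in hypertonic WT cells (-0.43 ± 0.15, adjusted p = 0.0379), but not without hypertonic WT arrays 2 (0.07) or 4 (0.173) or hypertonic KO arrays 1 (0.132) or 2 (0.178). Cdkn2b differed by -0.73 ± 0.42 between hypertonic and isotonic KO cells and by 1.00 ± 0.42 between hypertonic and isotonic WT cells, without passing (adjusted p = 0.222 and 0.164). Cdkn1c differed by 0.55 ± 0.18 between isotonic KO and isotonic WT cells (adjusted p = 0.0524, and 0.000245 with array number as a block). Cdkn1b, Cdkn2a and Cdkn2d passed in none of the 9 comparisons.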

How the data were processed

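Total RNA of mouse embryonic fibroblasts was read on 18 arrays, 3 in each of 6 groups set by the titles. The deposited values are log2 signals made by the authors with RMA in R 2.11.1, per the submitters' processing notes. Genome build: not given in the sources used here. RMA sets arrays to a common distribution of probes, so a shift shared by most genes would not be seen. The values were used with no further normalization. Of 34760 probe sets 21640 name 1 gene, and of several probe sets the one with the highest mean stands for the gene (19937 genes; Tk1 and Pcna have 2 probe sets). Tested were the 15711 genes with at least 1 group mean over 5.86, the 30th percentile of the table.

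limma 3.58.1 in R 4.3.3 fitted all 18 arrays in 1 model of group means, which leaves 12 residual degrees of freedom. In each of 9 contrasts p-values were adjusted by Benjamini-Hochberg over the 15711 genes, and values under 0.05 were called. Differences are log2 with standard errors. The number of arrays limits the precision. In simulated data for the hypertonic effect in WT, over 15711 genes, 83 of 100 genes changed by 1 log2 and 99 of 100 changed by 2 were recovered, with 7 false among 189 calls. The simulated noise was independent between genes, and changes under 1 log2 were not simulated. Members correlate within groups and most of their changes are smaller, so these rates need not hold for them.

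The members and lists were chosen with earlier results of these data known. All 39 members are accounted for. Values per array are given for up to 6 called members per contrast whose arrays do not overlap, by size, and for Mcm2, Mcm5, Cdc6, Ccne1, E2f1, Pcna and Rrm2 in the comparisons where they are described, and some further members were given per array after their values were seen. At most 4 called genes of each other list may be named by size, and the text leaves out some of these.

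The numbers 1, 2 and 4 come from the titles. After group means were removed, arrays of the same number in groups compared directly correlated with r of 0.156 to 0.847 over 21 pairs, and 15 of 18 arrays were closest to one of their own number, so the numbers were taken to pair the arrays. The main model of group means does not use this pairing, and calls are from it unless the block is named. Every result was also fitted with number as a block. Other alternatives were filters on dim genes, averaged probe sets, a repeated quantile normalization, centring on array medians, a trended and robust prior, fits on the groups of a contrast, isotonic KO array 1 counted as WT, and each array left out. Leaving out all arrays of number 4, and centring with the block, were added after the data were seen. Promoter windows are those of RefSeq, GRCm38.p6.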

Additional observations from a re-analysis of the deposited data

Results flagged for a closer look

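The hypertonic change differed between KO and WT cells for 5 genes of the replication pathway outside the 39 members, by limma's test of the difference itself. Over all tested genes 9.5% passed this test. The 5 genes were 2 of 34 other replication factors, 1 of 10 fork checkpoint genes and 2 of 9 other nucleotide supply genes. No gene passed among 10 other chromatin genes, 24 other G1/S regulators, 6 inhibitors of cyclin-dependent kinases and 28 mitosis genes. None of the 39 members passed that test.

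Orc5 read 7.69, 7.42 and 8.23 on hypertonic KO arrays 1, 2 and 4 and 9.46, 9.43 and 9.55 on isotonic KO arrays, while hypertonic WT arrays read 9.28, 9.60 and 9.51 and isotonic WT arrays 9.55, 9.33 and 9.28. The KO change minus the WT change was -1.78 (adjusted p = 0.000404). Orc3, another subunit of the origin recognition complex, read 9.18, 9.17 and 9.19 on hypertonic KO arrays and 10.49, 10.43 and 10.40 on isotonic KO arrays, with a difference from the WT change of -1.16 (adjusted p = 0.000525). In Tk2, the mitochondrial thymidine kinase, that difference was -0.93 (adjusted p = 0.00387). These 3 calls held with any 1 of the 18 arrays left out.

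Dctd, which turns deoxycytidylate into deoxyuridylate, had a difference of -1.20 (adjusted p = 0.0497) and passed in 5 of the 18 fits that leave out 1 array. Rad1, a subunit of a checkpoint clamp, had a difference of -0.77 (adjusted p = 0.0368) and passed in 9 of those 18 fits. Gene-level medians are lower on the hypertonic KO arrays, 7.53 to 7.57, than on the others, 7.64 to 7.74. With each array centred on its median, Orc5 (-1.60), Orc3 (-0.98) and Tk2 (-0.76) passed, while Dctd (-1.03, adjusted p = 0.084) and Rad1 (-0.60, 0.0866) did not. After a repeated quantile normalization Orc5, Orc3 and Tk2 again passed (-1.65, -1.07 and -0.77), and Dctd and Rad1 missed (0.0594 and 0.059).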

How the results depend on the processing

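Counts of called members are given as in the report unless a setting moved them by over 1.5 times. With the replicate block, 1 member passed for hypertonic medium in WT cells (0 without it), 1 for KO against WT in isotonic medium (0), 12 for KO against WT in hypertonic medium (7) and 2 for the KO difference of the hypertonic change (0), and beside the genes named with a block value the block changed no other call of a member. Of all tested genes 15%, 20.9%, 39.1% and 14.5% passed with the block in these comparisons, in the same order. Quantile normalization gave 1 member for the KO difference of the hypertonic change, where 9.67% of all tested genes passed. With isotonic KO array 1 counted as WT, 5 members passed for hypertonic medium in KO cells, where 8 passed otherwise. The share of all tested genes was then 22%, against 30.1%. Centring with the block gave 1 member each for hypertonic medium in WT cells, for the same with Torin1 and for KO against WT in isotonic medium.

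With each array left out in turn, the count ranged over 3 to 9 for hypertonic medium in KO cells, 2 to 9 for KO against WT in hypertonic medium and 0 to 2 for hypertonic medium in WT cells with Torin1. It ranged over 0 to 1 for hypertonic medium in WT cells, Torin1 in either medium, KO against WT in isotonic medium and the KO difference, and stayed at 0 for the Torin1 difference. Without the 6 arrays of number 4, chosen after seeing the data, 9 members passed for hypertonic medium in WT cells, 3 for the same with Torin1, 1 for Torin1 in hypertonic medium, 4 for KO against WT in isotonic medium, 16 in hypertonic medium and 4 for the KO difference. In the same order, 21.2%, 9.95%, 4.77%, 24.2%, 40.2% and 17.9% of all tested genes passed without those 6 arrays. The cause of the shifts in these counts was not tested.

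Of the alternatives run for single genes, those with a call in the main fit or in the alternative were counted. Of these, 1814 kept the call and its direction, 245 lost the call, 236 gained it and 0 changed sign. Genes called in neither fit were left out of these counts, so their changes of sign were not counted. Centring moved the median of all genes from -0.01 to 0.17 in the KO difference of the hypertonic change. With 3 arrays a group, a difference that did not pass is not shown to be absent.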
